A study of Mus musculus with 12 samples.

Results

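The 7 alcohol-fed (AF) livers fell into a pair of sets by their level of Cyp2e1, the gene of the cytochrome P450 that oxidizes ethanol in the liver. The livers were selected on this level, as measured in the same libraries, and not by a label: 4 livers (AF1, AF3, AF4 and AF5) had a Cyp2e1 level under 3000 CPM (counts scaled to a common library total) and are called low, and 3 livers (AF2, AF6 and AF7) had 3000 or more and are called retained. These are all 7 AF livers, among 12 livers in the series, and the numbers are the replicate numbers of the mice. All AF mice were male C57BL6/J mice aged 8 weeks per the labels, fed a high-fat liquid diet with ethanol into the stomach for 8 weeks, with doses raised to 27 g/kg/day and a weekly binge of 5 g/kg. They also ate a solid Western diet, and were euthanized the day after the last binge. The other 5 livers were from pair-fed (PF) male mice of the same strain and age, which received the isocaloric high-fat liquid diet without ethanol, and they serve here as untested reference values. The regimen is a model of alcohol-associated steatohepatitis (ASH). The sample labels do not separate the 7 AF mice from each other. The animal numbers in the column names of the count table can be divided into 2 ranges, however. That of AF1 to AF4 holds 3 of the 4 low livers, and that of AF5 to AF7 holds 2 of the 3 retained livers. The gap between the ranges is only slightly wider than the widest step within them, and what the ranges mark is not stated.

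CYP2E1 sits in the endoplasmic reticulum, takes electrons from the reductase encoded by Por, and turns ethanol into acetaldehyde alongside the cytosolic alcohol dehydrogenases. Aldehyde dehydrogenases then oxidize acetaldehyde to acetate. In normal liver, Cyp2e1 is made by pericentral hepatocytes, those around the central vein, where ethanol is known to raise the amount of the protein largely by slowing its breakdown. Hepatocytes in severe injury can lose such specialised functions, and a ductular reaction, the growth of bile duct-like cells, is a known feature of severe steatohepatitis. Because the samples are whole liver, fewer cells of a type and less RNA per cell cannot be told apart.

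Cyp2e1 (ENSMUSG00000025479, GRCm38, chromosome 7, 140763739 to 140774987) was at 643 CPM of the library total in AF1, 1293 in AF3, 1375 in AF4 and 1246 in AF5. It was at 6005 in AF2, 5786 in AF6 and 6942 in AF7. The PF livers ranged from 8166 to 10480. The livers nearest to the threshold were AF4 and AF6, with a 4.21-fold gap between them, and every AF liver was below every PF liver. Since these values chose the sets, they are a description without a test, and Cyp2e1 was left out of all tests. Split on values scaled with TMM factors, the sets were the same.

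**Figure D1:**
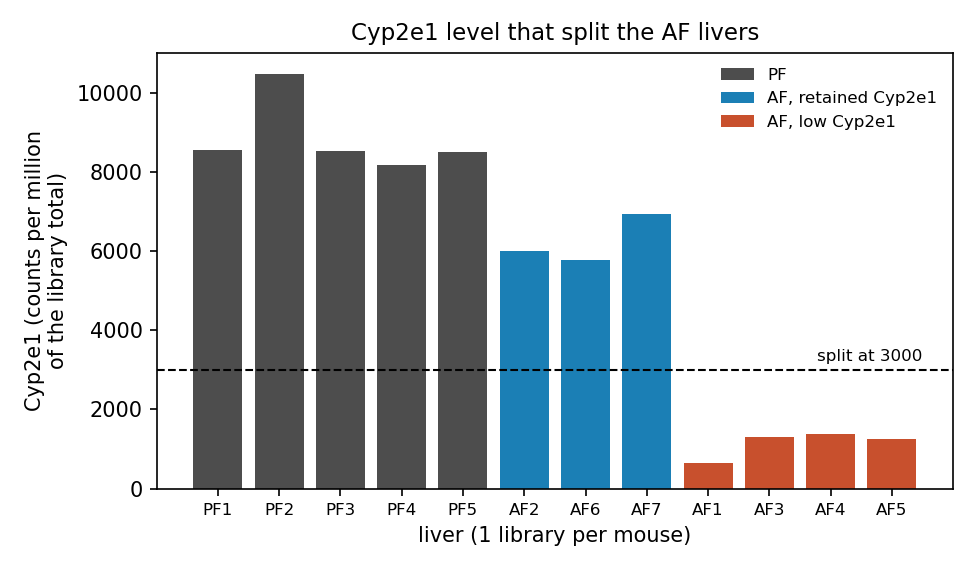
Cyp2e1 CPM of the library total (vertical axis) in each of the 12 livers (horizontal axis, 1 bar per mouse), with the dashed line at 3000. The 4 low livers lie between 643 and 1375, and the 3 retained livers between 5786 and 6942.

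The 250 bases before the start site of Cyp2e1 are printed because the split rests on this gene, and those of Cyp8b1 because it was among the genes that differed with the smallest p. Both are from RefSeq (GRCm38.p6), on the + strand at chr7:140763569-140763818 and on the - strand at chr9:121916306-121916555. In Cyp2e1 the capitals mark TATAAA, the letters of a core promoter element, at 31 bases before the start, and in Cyp8b1 they mark CAAAGTCCA, the letters of an HNF4-type site, at 67 bases before it.
Cyp2e1: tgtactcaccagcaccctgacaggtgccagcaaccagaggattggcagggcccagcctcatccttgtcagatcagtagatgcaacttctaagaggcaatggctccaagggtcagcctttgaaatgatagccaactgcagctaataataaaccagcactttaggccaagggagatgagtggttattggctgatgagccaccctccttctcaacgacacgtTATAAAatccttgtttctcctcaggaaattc
Cyp8b1: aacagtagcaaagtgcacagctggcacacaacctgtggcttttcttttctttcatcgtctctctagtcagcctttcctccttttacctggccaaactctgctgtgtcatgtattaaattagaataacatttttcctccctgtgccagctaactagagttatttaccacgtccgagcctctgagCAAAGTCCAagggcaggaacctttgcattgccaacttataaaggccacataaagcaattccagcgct
Searched on both strands of the same window, TATAAA was found in 12.4% of 32851 promoters and CAAAGTCCA in 0.384%. Of the 30 most changed genes described below, 18 had a promoter in the table, and TATAAA was in those of Dhrs9, Spp1, Cyp8b1, Sult2a8 and Ugt3a1, while CAAAGTCCA was in that of Cyp8b1 alone. These matches describe the letters and no binding was measured.

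Total counts per library were between 25099033 and 30578639 in AF and between 24129900 and 28594027 in PF livers. The low livers stood apart in other measures of the whole library as well. Their TMM factors, which scale each library to the others, were between 1.14 and 1.36, against 0.870 to 1.04 in retained and 0.827 to 0.904 in PF livers. Between 20357 and 20772 genes had a count in the low livers, 19078 to 19865 in the retained and 18686 to 19507 in PF livers. On the first principal component of all 12 libraries, computed without Cyp2e1 and holding 58.8% of the variance, PF livers were between -73.4 and -49.1, retained livers between -12.3 and 21.3, and low livers between 52.1 and 88.4. The share of the 10 most abundant genes was 15.7 to 18.6% in low and 17.6 to 20.04% in retained libraries. The mitochondrial share was 4.19 to 7.62% in low livers, highest in AF5, and 5.20 to 5.32% in retained livers. The part of these measures in the results was not tested.

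Among the genes higher in low livers were 3 of 10 bile duct genes (with Cftr and Cldn7 left out, as described below) and 5 of 16 p53 targets. So were 4 of 8 fetal liver genes, counting Cldn6, whose limit is given below. Among those lower were 11 of 14 urinary protein (Mup) genes, 9 of 34 cytochrome P450 genes, 8 of 22 pericentral genes and 4 of 19 bile acid genes. The lists overlap in part, so their counts and sums are not independent. The P450 and pericentral lists share genes, as do the pericentral and bile acid lists (Cyp7a1) and the P450 and male-biased lists (Cyp2d9). In all, 428 of 14487 genes tested (2.95%) differed, 205 higher (1.42%) and 223 lower (1.54%) in low livers. Unadjusted, 3034 of the 14487 had p under 0.05. Counts of unadjusted p in the lists below are to be read against that share. The test was edgeR's quasi-likelihood test over the 7 AF livers with Benjamini-Hochberg adjustment, and fold changes are low over retained on the log2 scale. The median over all genes tested was 0.03. The p values say only whether a gene differs between livers that were split on another gene, and they do not test a condition. Of the 205 higher genes all 205, and of the 223 lower genes 221, had no overlap between the sets, as had 18.5% of all genes tested. For 43 of the higher genes no retained liver, and for 8 of the lower genes no low liver, reached the level that the filter on low counts asks for (0.316 CPM). These passed the filter through the set in which they were high, so they support nothing, and 162 higher and 215 lower genes were left without them. The 162 still include Cldn6 and any other gene for which only some of the retained livers reached that level. Such genes also needed the low livers to pass the filter, so their calls support nothing. The 215 may hold genes with the same limit. Among the 162 and 215 genes the median size of the change was 1.43 (log2), 85 were more than 4-fold higher and 45 more than 4-fold lower. An exact two-sided permutation of 4 against 3 livers cannot go below 0.0571, so single sums are given without a p.

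The number of genes depended on single livers. Without AF6 it fell to 10, without AF7 to 30, without AF5 to 82 and without AF1 to 127, and without AF2 it rose to 687. Without AF3 it was 384 and without AF4 356. All of the 428 genes that were tested in these fits kept their direction, and 3 were not tested without AF1, AF3 or AF5. With the range of the animal numbers as a further term, 73 genes differed, 37 higher and 36 lower, with 71 of them among the 428. In that fit 2 bile duct, 2 fetal, 2 bile acid, 2 male-biased and 4 P450 genes passed in the direction given below, and 0 p53 targets and 0 pericentral genes. There 1 P450 gene, Cyp2a4, was higher. The bile duct and fetal counts of that fit were taken with Cftr, Cldn7 and Cldn6 in their lists. The genes that passed the test in every one of the 7 fits were Prom1, which was higher, and Sult2a8, Cyp8b1, Gm13775, Sult5a1, Nat8, Clstn3 and Cyp2d40, which were lower. In a fit of all 12 livers as 3 groups, 1258 genes differed, and between 473 (without AF6) and 1981 (without AF2) did so when each AF liver was left out. The latter fits and that with the animal number range were added after seeing the data. On library totals without TMM factors 1471 genes were higher and 145 lower, and the median of all genes rose to 0.39. Statements on lists below are therefore relative to the median gene. Counts of list members in other fits are to be read against each fit's own total. In the fit of 12 livers 566 genes were higher and 692 lower, and by DESeq2 734 were higher and 746 lower.

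**Figure D2:**
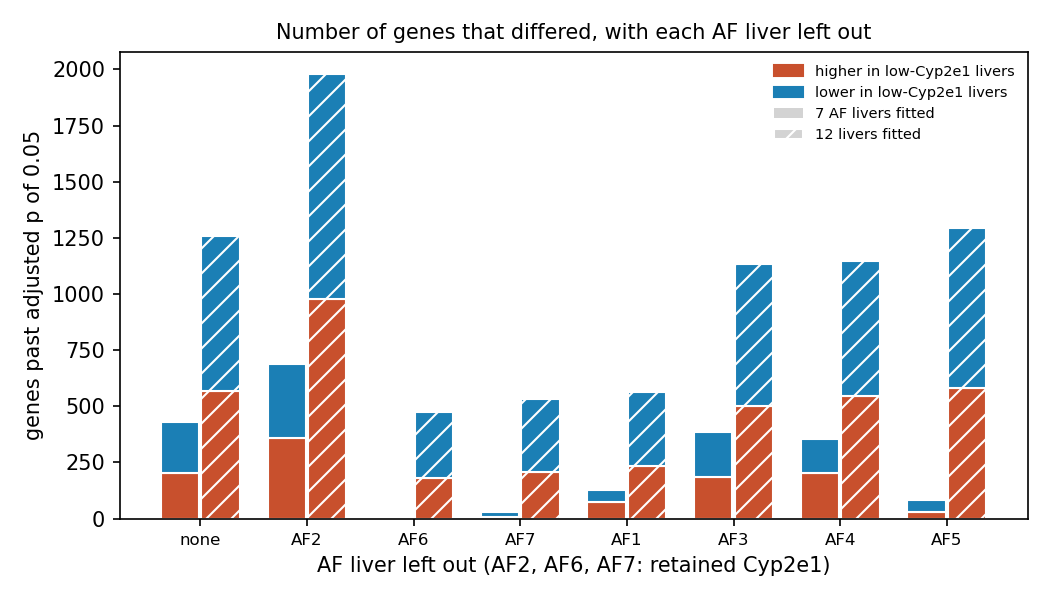
Number of genes past an adjusted p of 0.05 (vertical axis), higher and lower in low livers, with no liver or 1 AF liver left out (horizontal axis), in fits of the AF livers alone (plain bars) or of all livers in 3 groups (hatched bars). Leaving out AF6 gave the fewest genes in both fits, 10 and 473.

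The PF livers, which took no part in the split or the test, place these genes. Genes for which no liver of the other set reached the filter's level are left out here, while Cldn6 and any like it are kept. Of the 162 higher genes, the mean of the low livers was above every PF liver for 157, while the mean of the retained livers lay inside the PF range for 79 (48.8%), above it for 70 and below it for 13. Of the 215 lower genes, the mean of the low livers was below every PF liver for 205. The mean of the retained livers lay inside the PF range for 89 (41.4%), below it for 84 and above it for 42. Over all genes tested the retained mean lay inside the PF range for 45.1% and the low mean for 34.4%. The shares of 48.8% and 41.4% are thus near the share over all genes. Shares over all genes of a mean above or below the PF range are not given, so those counts are a description only. The genes included some on which retained livers were close to PF and some on which they lay between PF and low livers. On others, such as Cyp8b1, retained livers were above both.

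The 15 largest rises among genes of at least moderate abundance were in Vmn2r3, H19, Elovl7, Tspan8, Prom1, Sftpd, Ehf, Scara3, Cd24a, Spp1, Gipc2, Dhrs9, Sox4, Bicc1 and Ddr1, with log2 fold changes from 5.21 to 2.23. Vmn2r3, a vomeronasal receptor gene, was at 45.3 CPM in AF1, 5.84 in AF3, 26.6 in AF4 and 75.8 in AF5, and at 0.649, 0.8286 and 1.61 CPM in the retained livers. All 5 PF livers together had 1 count of it, and its log2 fold change was 5.21 (SE 0.856, adjusted p = 0.0283 by edgeR). Elovl7, a fatty acid elongase, was between 5.49 and 45.7 CPM in low and between 1.11 and 1.57 CPM in retained livers, with PF livers at 0.184 to 0.678. Dhrs9, a short-chain dehydrogenase that acts on retinol and steroids, was at 59.3, 35, 44.2 and 33.6 CPM in AF1, AF3, AF4 and AF5 and at 10.2, 5.88 and 7.76 CPM in AF2, AF6 and AF7. Its log2 fold change of 2.44 (SE 0.263, adjusted p = 0.0141 by edgeR) had the smallest SE of these 15 genes. Ehf, an epithelial transcription factor, was at 5.57 to 23.1 CPM in low, 1.12 to 1.87 in retained and 0.506 to 3.12 CPM in PF livers. For 9 of the 15, the mean of the retained livers lay inside the PF range: Ehf, Dhrs9, Prom1, Spp1, Cd24a, Tspan8 (a tetraspanin), Scara3 (a scavenger receptor), Sftpd (the collectin surfactant protein D) and Bicc1 (an RNA-binding protein). Ddr1, a collagen receptor, had a mean of 12.4 CPM in low, 2.64 in retained and 0.813 in PF livers. H19, Elovl7, Tspan8, Prom1, Gipc2, Sox4, Bicc1, Ddr1 and, among the lower genes, Ces3a overlap genes on the opposite strand, and the strand setting of the counting is not stated, so their values are uncertain to that extent. The same holds for Dusp1, which overlaps Ergic1, and for Por, Cyb5a, Adh1, Aldh2, Glul, Lhpp, Ahr, Axin2, Lgr5, Cyp2f2, Cyp2a4, Cyp2d9, Hnf4a, Afp, Igf2, Cdkn1a, Atf3, Ddit3, Elovl3, Ahcy, Prodh, Dpys, Acacb, Pcx, C8g, Krt7, Cftr, Cd9 and Alas2. Another annotated gene lies on the same strand within or across H19, Prom1, Spp1, Bicc1, Ddr1, Dusp1, Glul, Rhbg, Cyp2d9, Hnf4a, Igf2, Tm7sf2, Crp, Ddit3, Aldh18a1 and Cftr.

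The 15 largest falls were led by Mup genes, which encode the major urinary proteins that the male liver secretes in large amounts. Mup21, Mup17, Mup7, Mup16, Mup11, Mup3 and Mup14 fell by 5.30 to 3.75 on the log2 scale, followed or interspersed by Sult2a8, Ces3a, Serpina12, Cyp8b1, Gm13775, Cyp2c54, Ugt3a1 and Slc22a7. Of 14 Mup genes tested, a count made after these values were seen, 11 were lower, and all 14 had negative fold changes. The count of 11 was 0 without AF6, 3 without AF5, 4 without AF1, 6 without AF3 or AF7 and 8 without AF2, and with voom it was 4, while it was 14 in the fit of 12 livers. All 14 fold changes stayed negative in these fits. Mup3 (chromosome 4, 62083476 to 62087342) was at 40.2, 173, 245 and 172 CPM in the low livers AF1, AF3, AF4 and AF5. It was at 3947, 3055 and 1313 CPM in AF2, AF6 and AF7, and at 5857 to 9567 CPM in PF livers. Every low liver was thus below every retained liver, and every retained liver was below every PF liver. The log2 difference from retained livers was -4.14 (SE 0.598, adjusted p = 0.0243 by edgeR). AF7 was the lowest retained liver for all 7 of these Mup genes, with 12.5 CPM of Mup11 against 102 in AF2 and 109 in AF6, and the highest low liver, AF4, had 10.5.

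The Mup genes stand in a cluster on chromosome 4, and many of them share most of their sequence. The 250 bases before the start sites of Mup11 (chr4:60662396-60662645, - strand) and Mup17 (chr4:61595833-61596082, - strand) from RefSeq (GRCm38.p6) are shown for this reason, and capitals mark their longest shared run, of 154 bases.
Mup11: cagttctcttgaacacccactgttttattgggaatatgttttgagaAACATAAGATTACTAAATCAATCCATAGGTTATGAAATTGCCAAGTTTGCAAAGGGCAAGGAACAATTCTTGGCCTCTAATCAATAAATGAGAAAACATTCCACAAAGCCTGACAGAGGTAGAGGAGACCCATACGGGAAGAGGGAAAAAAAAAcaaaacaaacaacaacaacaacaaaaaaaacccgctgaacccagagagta
Mup17: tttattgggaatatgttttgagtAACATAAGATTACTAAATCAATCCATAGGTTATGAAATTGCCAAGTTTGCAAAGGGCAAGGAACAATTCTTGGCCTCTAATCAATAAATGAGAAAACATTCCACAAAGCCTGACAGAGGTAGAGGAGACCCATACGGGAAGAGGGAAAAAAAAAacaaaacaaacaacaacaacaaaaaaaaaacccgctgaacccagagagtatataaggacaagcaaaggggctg
Among 50-base words in the GENCODE M21 transcripts of Mup11, 77.8% also occurred in another Mup gene, as did 78.1% of those of Mup17, 84.0% of Mup14, 85.0% of Mup7 and 91.7% of Mup16. Reads of these genes may be split among them, so their values are not independent. In Mup3 the share was 12.6% and in Mup21 19.1%, and these genes fell as well. Gm13775, a predicted gene of the same cluster, overlaps the pseudogene Mup-ps16 on the same strand.

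Outside the Mup cluster, Sult2a8, a sulfotransferase of the liver, was at 1.33, 4.38, 2.97 and 2.38 CPM in the low livers and at 71.5, 106 and 86.1 CPM in the retained livers. PF livers were at 718 to 1018 CPM, so retained livers were also far below PF. It fell by 4.997 on the log2 scale (SE 0.349, adjusted p = 0.00118 by edgeR). Ces3a, a carboxylesterase, was at 8.15 to 93.1 CPM in low, 180 to 915 in retained and 1685 to 2267 in PF livers. Serpina12, the gene of vaspin, was at 1.67 to 7.00 CPM in low livers, while the 39.5 to 83.7 CPM of retained livers overlapped the 63.1 to 92.8 CPM of PF livers. Ugt3a1, a glycosyltransferase, had means of 13.6 CPM in low, 94.2 in retained and 133.5 CPM in PF livers. Slc22a7, the organic anion transporter OAT2, was at 2.29 to 4.32 CPM in low, 10.7 to 28.0 in retained and 17.1 to 43.2 CPM in PF livers.

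**Figure D3:**
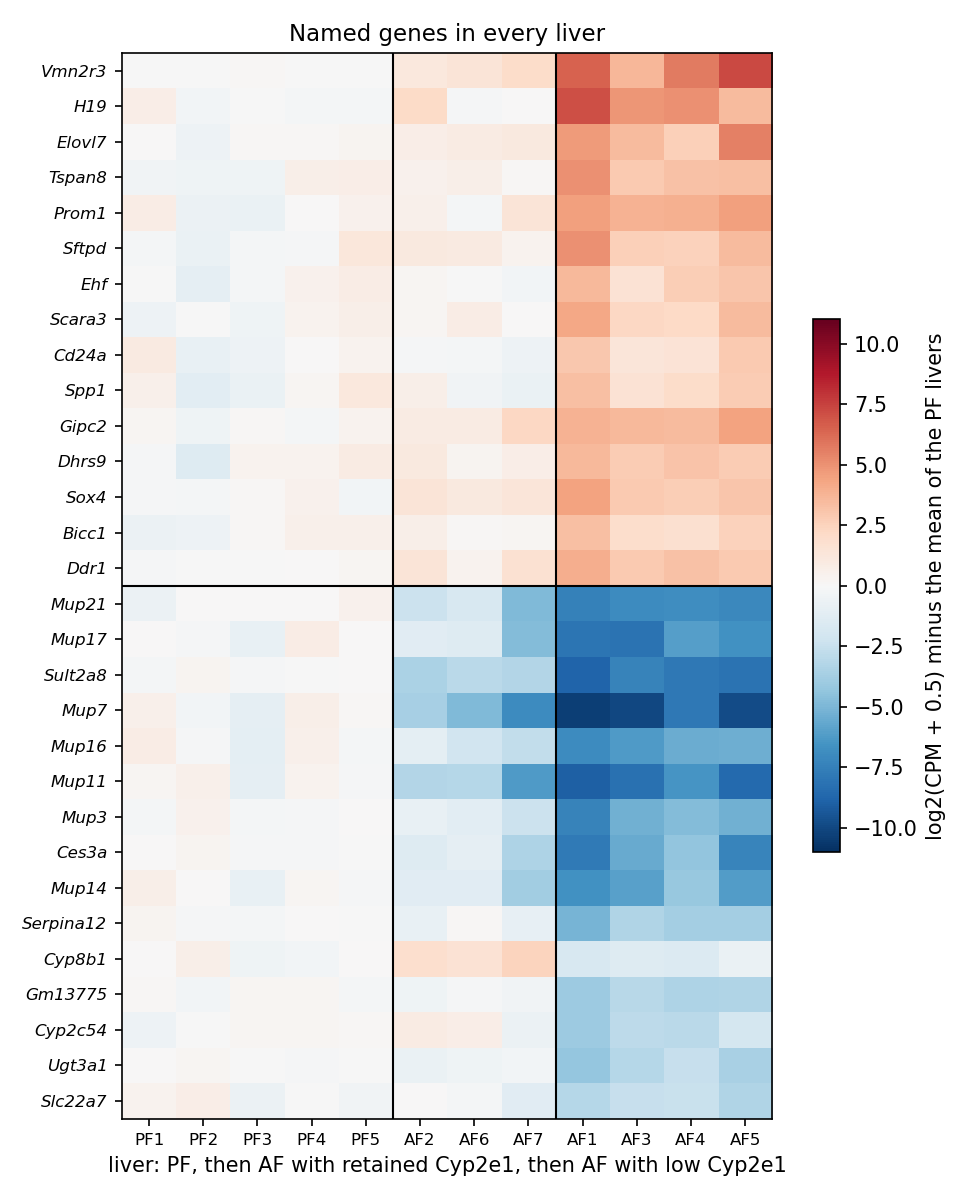
Colour gives log2(CPM + 0.5) of each named gene (rows: 15 higher, then 15 lower) in each liver (columns) minus the mean of the PF livers. Low livers differ from PF in the same direction in all 30 rows, and Cyp8b1 is the lower row in which all retained livers lie above PF.

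Of 17 genes of alcohol and aldehyde metabolism tested, Por alone passed the test, and it was lower. In the list 14 had negative fold changes (median -0.63), and 11 had every low liver below every retained liver. Over all 14487 genes tested 1.54% were lower, so a count of 1 is near the overall share, and 1189 had every low liver below every retained liver. Por, the electron donor of all microsomal P450 enzymes, was at 185, 224, 157 and 200 CPM in AF1, AF3, AF4 and AF5 and at 353, 395 and 521 CPM in AF2, AF6 and AF7. The PF range of 166 to 257 CPM held 3 of the 4 low livers, and the retained livers were above it. On the log2 scale the difference was -1.14 (SE 0.191, adjusted p = 0.0284 by edgeR). Cyb5a, cytochrome b5, a further electron carrier, was at 745 to 1458 CPM in low and 1925 to 2315 CPM in retained livers (adjusted p = 0.0740 by edgeR). Aldh2, which clears acetaldehyde in mitochondria, was at 449 to 624 CPM in low and 783 to 1214 CPM in retained livers, with an adjusted p of 0.0568 in edgeR's test. Adh4 (adjusted p = 0.0515) was at 17.7 to 40.1 CPM in low livers, 46.8 to 99.5 in retained and 193 to 213 CPM in PF livers. Adh1, the main hepatic alcohol dehydrogenase, was at 806 to 1457 CPM in low and 1529 to 2319 CPM in retained livers (adjusted p = 0.166 by edgeR). For catalase, Cat, the corresponding ranges were 1125 to 2264 and 2497 to 3703 CPM (adjusted p = 0.183 by edgeR). On library totals the median of this list was -0.27. None of the 17 passed without AF1, AF5, AF6 or AF7, or with the animal number range as a term, and 2 passed without AF2 or AF3. In the fit of 12 livers 7 were lower, and by DESeq2 9.

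Of 34 other cytochrome P450 genes of families 1 to 3 tested, 9 were lower and 0 higher in low livers, with a median of -1.14. Summed over the list, low livers had between 15340 and 34440 CPM, retained livers 49520 to 57780 and PF livers 21310 to 26500, so that every retained liver lay above PF, as did AF3 and AF5 of the low livers. Cyp2c50 was at 387, 778, 520 and 903 CPM in AF1, AF3, AF4 and AF5, at 2996, 2932 and 2543 CPM in AF2, AF6 and AF7 and at 1378 to 1888 CPM in PF livers, with a log2 fold change of -2.13 (SE 0.308, adjusted p = 0.0243 by edgeR). Cyp2c54 was at 39.7 to 167 CPM in low and 418 to 1234 CPM in retained livers, around a PF range of 437 to 755. Cyp2d40 (log2 fold change -2.31), Cyp2d9 (-2.45) and Cyp2d22 (-0.98) were lower as well, and for these 3 genes the retained livers were at or close to PF levels. The P450 enzymes of the 2c and 2d subfamilies oxidize steroids, fatty acids and drugs, and members of each are similar in sequence, so reads may be shared. Cyp2a4, a gene of female liver named here after its values were seen, went the other way, at 1144, 819, 678 and 3020 CPM in the low livers against 54.4, 310 and 266 CPM in the retained and under 1.02 CPM in PF livers, with a log2 fold change of 2.75 (SE 0.714, adjusted p = 0.0717 by edgeR). It was higher by DESeq2 (adjusted p = 0.0114) and in the fit of 12 livers. In these fits 20 and 16 P450 genes were lower, where 746 and 692 genes were lower in all. In edgeR's fit of the AF livers 223 were. The number of P450 genes lower in edgeR's fit of the AF livers was 1 without AF6, 3 without AF7 and 6 to 8 without any other AF liver.

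Several genes of the pericentral zone, in which Cyp2e1 is made, were lower as well. Of 22 tested, 8 were lower and 0 higher in low livers, and 21 had negative fold changes, with a median of -0.94. Glul, the glutamine synthetase of the innermost pericentral cells, was at 118, 168, 267 and 162 CPM in AF1, AF3, AF4 and AF5 and at 511, 563 and 583 CPM in AF2, AF6 and AF7, against 1065 to 1184 CPM in PF livers. The log2 difference from retained livers was -1.63 (SE 0.257, adjusted p = 0.0276 by edgeR). Rhbg, an ammonia channel, was at 0.973 to 1.55 CPM in low livers and 3.36 to 4.93 CPM in retained livers, the latter above the PF range of 1.53 to 2.02. Lhpp, a phosphatase, was at 9.45 to 23.95 CPM in low, 42.6 to 81.3 in retained and 54.5 to 69.9 CPM in PF livers. Pon1 (paraoxonase, log2 fold change -1.29) and Ahr (the aryl hydrocarbon receptor, -0.67) also fell. The Wnt targets of this zone Axin2 and Lgr5 did not pass the test. Axin2 was at 3.03 to 3.84 CPM in low and 5.03 to 6.30 CPM in retained livers (adjusted p = 0.0574 by edgeR), and Lgr5, with 1.59 to 3.25 against 1.92 to 4.50 CPM, overlapped (adjusted p = 0.649 by edgeR). Of 19 periportal genes tested, 1 passed, Cyp2f2, which was lower (log2 fold change -2.03), a count near the 1.54% lower over all genes. Cyp2f2 did not pass without AF5, AF6 or AF7, or with the animal number range as a term. The list's median of -0.21 became 0.17 on library totals, so no direction is given for the list. The sum of the pericentral list was 9920 to 20840 CPM in low, 32270 to 42510 in retained and 16790 to 20850 CPM in PF livers. Every retained liver thus lay above PF, while AF3 and AF5 of the low livers lay inside the PF range and AF1 and AF4 below it. The count of 8 was 0 without AF6 or AF7, 1 without AF5 and 3 without AF1, and it was 13 in the fit of 12 livers and 14 by DESeq2.

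Among 19 genes of bile acid synthesis and transport tested, 4 were lower and 0 higher, with a median of -0.63. Cyp8b1, the sterol 12-hydroxylase that makes cholic acid, was at 25.2, 33.1, 30.6 and 53.3 CPM in AF1, AF3, AF4 and AF5, and at 324, 268 and 481 CPM in AF2, AF6 and AF7. The PF livers were at 65.8 to 141 CPM, so that all low livers were below and all retained livers above every PF liver. Low over retained, the log2 change was -3.33 (SE 0.297, adjusted p = 0.00583 by edgeR). Slc27a5, which activates bile acids with coenzyme A, was at 189 to 369 CPM in low, 802 to 987 in retained and 830 to 1206 CPM in PF livers. Slc10a1, the sodium-dependent uptake transporter NTCP, was at 141 to 251 CPM in low livers and 497 to 599 CPM in retained livers, and Baat, which conjugates bile acids to amino acids, at 128 to 199 and 271 to 310 CPM. Cyp27a1 of the alternative route had a log2 fold change of -0.73 (SE 0.171, adjusted p = 0.0566 by edgeR). Cyp7a1, the rate-limiting enzyme of the classical route, overlapped between the sets, at 7.58 to 65.2 CPM in low and 16.7 to 163 CPM in retained livers (adjusted p = 0.470 by edgeR). The count of 4 was 1 without AF6 or AF7 and 2 without AF5, and it was 8 in the fit of 12 livers and by DESeq2. Of the hepatocyte transcription factors, Nr1h4, the bile acid receptor FXR, was the 1 of 21 that was lower, at 64.8 to 71.5 CPM in low and 96.1 to 116 CPM in retained livers. Hnf4a was at 415 to 506 CPM in low and 569 to 991 CPM in retained livers, with a log2 fold change of -0.69 (SE 0.221) that did not pass the test (adjusted p = 0.119 by edgeR). A count of 1 in 21 is near the 1.54% lower over all genes. It was 0 without AF1, AF3, AF4, AF6 or AF7, 0 with the animal number range as a term and 3 without AF2. On library totals the median of the factors changed sign, from -0.29 to 0.08.

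**Figure D4:**
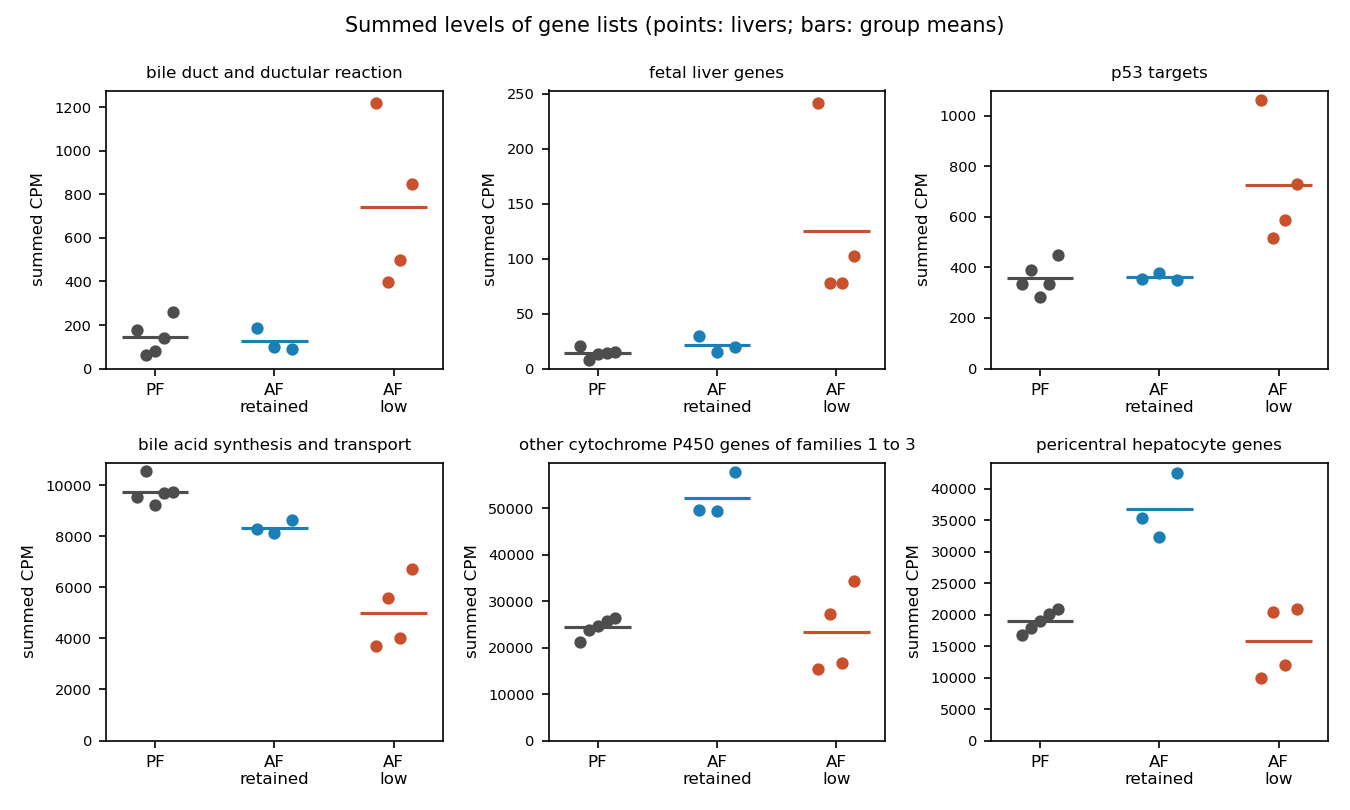
Summed CPM (vertical axes, from 0) of 6 gene lists in PF livers, AF livers with retained Cyp2e1 and AF livers with low Cyp2e1, with 1 point per liver and bars at group means. Low livers lie above all others for the bile duct, fetal and p53 lists. Retained livers lie above all others for the P450 list without Cyp2e1 and for the pericentral list.

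Bile duct and ductular reaction genes were the list with the highest median, 2.81. Of 12 tested, 4 were higher and 0 lower, all 12 had positive fold changes, and 10 had every low liver above every retained liver. Prom1, the surface protein CD133 of biliary and progenitor cells, was at 45.3, 27.7, 30.3 and 45.9 CPM in AF1, AF3, AF4 and AF5 and at 2.48, 1.24 and 4.82 CPM in AF2, AF6 and AF7, with PF livers at 0.747 to 3.09 CPM. On the log2 scale the difference was 3.70 (SE 0.426, adjusted p = 0.0141 by edgeR). Spp1, osteopontin, was at 1053, 321, 432 and 723 CPM in the low livers and 162, 83.1 and 64.5 CPM in the retained livers, against 46.6 to 239 CPM in PF livers. Epcam was at 6.18 to 22.7 CPM in low and 1.18 to 1.39 CPM in retained livers, and Cftr, the chloride channel of ducts, at 1.06 to 2.11 and 0.105 to 0.301 CPM. The defining duct keratins were higher in each low liver but did not pass the test: Krt19 was at 1.04 to 3.93 CPM in low and 0.226 to 0.559 CPM in retained livers (adjusted p = 0.0524 by edgeR), and Krt7 at 1.37 to 5.47 and 0.490 to 0.804 CPM (adjusted p = 0.0822 by edgeR). Sox9 overlapped between the sets. Summed, the list came to 1220, 399, 499 and 850 CPM in AF1, AF3, AF4 and AF5, to 185, 101 and 90.6 CPM in AF2, AF6 and AF7 and to 61.2 to 259 CPM in PF livers. No member was at 0 in all AF livers. The count of 4 was 1 without AF5, AF6 or AF7, 6 without AF3 and 7 without AF4, and it was 10 in the fit of 12 livers and 9 by DESeq2. Cftr and Cldn7 passed the filter on low counts through the low livers alone. The counts above, also those of other fits, and the median of 2.81 were taken with them in the list. Of the 10 other genes 3 were higher, all 10 had positive fold changes, 8 had no overlap and the median was 2.76.

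Several genes of fetal liver were higher too. Of 8 tested, Cd24a, Cldn6, Sox4 and H19 were higher and 0 were lower, with a median of 2.04. H19 (chromosome 7, 142575529 to 142578143), an imprinted noncoding RNA abundant before birth, was at 127 CPM in AF1, 25.8 in AF3, 29.7 in AF4 and 9.93 in AF5, and at 3.47, 0.339 and 0.454 CPM in AF2, AF6 and AF7. The log2 difference from retained livers was 5.09 (SE 1.11, adjusted p = 0.0474 by edgeR). Igf2, the neighbour imprinted with it, was under 0.03 CPM in every AF liver and was not tested. Sox4, a transcription factor of progenitor cells, was at 12.4 to 41.3 CPM in low, 3.54 to 4.62 in retained and 1.13 to 2.19 CPM in PF livers. Cldn6, a claudin of embryonic epithelia, was at 1.20 to 3.49 CPM in low and 0.151 to 0.382 CPM in retained livers. Its lowest retained liver was under the 0.316 CPM that the filter on low counts asks for, so it passed the filter only with the low livers. The call of Cldn6 therefore supports nothing, and Cd24a, Sox4 and H19 are the other higher genes. The list's median and its counts of higher genes, also in other fits, were taken with Cldn6 in the list. Afp, the classical fetal protein, was at 1.89 to 4.78 CPM in low and 0.414 to 2.02 CPM in retained livers and did not pass the test (adjusted p = 0.127 by edgeR). The count of 4 was 0 without AF5, AF6 or AF7 and 2 without AF1. It was 0 with voom and 1 with voom quality weights, while it was 5 in the fit of 12 livers and by DESeq2. Cd24a and Sox4 are also made by bile duct cells, whose markers moved with these genes, and the part of such cells in the result was not tested.

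Of 16 p53 targets, 5 were higher and 0 lower, with a median of 0.75. Cdkn1a, the cell cycle inhibitor p21, was at 93.9, 46.9, 58.2 and 45.9 CPM in AF1, AF3, AF4 and AF5 and at 25.7, 17.6 and 16.6 CPM in AF2, AF6 and AF7, against 2.48 to 12.5 CPM in PF livers. Low over retained, the log2 change was 1.62 (SE 0.284, adjusted p = 0.0297 by edgeR). The death receptor genes Tnfrsf10b and Eda2r were at 5.05 to 9.32 and 8.00 to 15.4 CPM in low livers, and at 0.565 to 1.87 and 1.39 to 3.97 CPM in retained livers. Phlda3, an inhibitor of AKT, and Zmat3, an RNA-binding protein, had log2 fold changes of 2.01 and 1.27. Mdm2, the ligase that degrades p53, was at 43.7 to 60.4 CPM in low and 34.1 to 44.3 CPM in retained livers and did not pass (adjusted p = 0.177 by edgeR). The count of 5 was 0 without AF5, AF6 or AF7, 2 without AF1 and 3 without AF2. In the ATF4 and CHOP stress response, with Phgdh left out because it passed the filter through the low livers alone, 1 of 25 genes was higher, Aldh18a1, an enzyme of proline synthesis (13.4 to 16.6 CPM in low, 6.71 to 8.43 in retained). With 1.42% higher over all genes, a count of 1 in 25 is near the overall share, and none of this list was called without AF6 or AF7. The factors of that response, Atf4, Ddit3 and Atf3, overlapped between the sets. None of 20 proliferation genes passed in edgeR's test, although all 20 fold changes were positive (median 0.86), with 5 at an unadjusted p under 0.05 and 0 called by DESeq2. Over all genes 3034 of 14487 were at such an unadjusted p. AF2, with a summed level of 328 CPM, lay within the low range of 258 to 468 CPM. Without AF2, 9 of the 20 were higher (median 2.01), and 13 in the fit of 12 livers without AF2.

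Male-biased liver genes, which depend on the pulses of growth hormone in males, had the lowest median of all lists in edgeR's fit on TMM scaling, -2.27, with 3 of 9 tested lower and 0 higher. With voom quality weights it was -1.03, against -1.38 for the P450 list. Besides Mup3, these were Cyp2d9, at 77.0 to 199 CPM in low, 569 to 1082 in retained and 595 to 1035 CPM in PF livers, and Cyp4a12a, at 0.104 to 0.859 CPM in low livers. Cyp4a12a was at 11.5, 51.1 and 0.420 CPM in AF2, AF6 and AF7, so that AF7 lay among the low livers. Elovl3 (log2 fold change -4.36, edgeR adjusted p = 0.0536) and Mup20 (-2.27, edgeR adjusted p = 0.107) did not pass, and AF7 lay among the low livers for both. The summed list was 485 to 1202 CPM in low, 2340 in AF7, 7716 and 9371 in AF2 and AF6, and 17620 to 30700 CPM in PF livers. Of 11 genes of the growth hormone axis, 2 were lower, the receptor gene Ghr, at 111 to 192 CPM in low, 282 to 403 in retained and 702 to 839 CPM in PF livers, and Igfals, which encodes a carrier of IGF1, with a log2 fold change of -1.19 (SE 0.163, adjusted p = 0.0189 by edgeR). The count of 2 was 0 without AF6 or AF7 and 1 without AF1, AF2, AF4 or AF5, and the median of the list changed sign on library totals, from -0.31 to 0.05. None of 10 female-biased genes passed edgeR's test, with 2 at an unadjusted p under 0.05 and 1 called by DESeq2. Their median of 0.79 was 0.19 without AF5, 1.77 without AF7 and -0.09 with voom quality weights, so no direction is given for them. The count of 3 male-biased genes was 0 without AF6 and 1 without AF5, and it was 5 in the fit of 12 livers and by DESeq2.

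The lists of other hepatocyte functions that follow had 0 to 3 lower members and 0 higher ones, against 1.54% lower and 1.42% higher over all genes, so that counts of 0 or 1 in lists of this size are near the overall share. None of these members was called without AF6 or with the animal number range as a term. In 14 core hepatocyte genes Apoa2 alone passed (log2 fold change -1.50), and the list summed to 80980 to 98190 CPM in low, 107300 to 146500 in retained and 129300 to 179100 CPM in PF livers, led by Alb at 37480 to 62860, 57080 to 83420 and 73310 to 111400 CPM. Of 32 genes of the urea cycle and amino acid breakdown, Ahcy, Prodh and Dpys were lower (median -0.55), while 13 were lower in the fit of 12 livers and 15 by DESeq2, and 0 to 5 with 1 AF liver left out. In 26 complement and coagulation genes, C8g and Proc were lower (median -0.67), while 15 were lower in the fit of 12 livers and 15 by DESeq2, and 0 to 5 with 1 AF liver left out (5 without AF4). In 20 acute phase genes Crp was lower (median -0.69). Without AF4, 7 were lower (median -1.12), and 10 in the fit of 12 livers without AF4, while 0 were lower without any other AF liver. Of 25 fatty acid oxidation genes 2 were lower, among them Cyp4a12a (median -0.49), and 6 in the fit of 12 livers and by DESeq2. Without AF1, AF4, AF5 or AF6 there were 0, and on library totals the median was -0.12. Acacb of 21 lipogenic genes, Tm7sf2 of 24 cholesterol synthesis genes and Pcx of 23 glycolytic and gluconeogenic genes were lower. The medians of these 3 lists changed sign on library totals. None of 20 ER chaperone and ERAD genes passed edgeR's test, with all 20 fold changes negative, 6 at an unadjusted p under 0.05 and 4 called by DESeq2. Over all 14487 genes tested 3034 were at such an unadjusted p, and DESeq2 called 1480 genes in all. None of 24 NRF2 targets passed either (4 unadjusted, 1 by DESeq2), nor did any of 16 Dusp phosphatase and immediate early genes (2 and 1), 16 clock genes (2 and 2), 17 interferon-stimulated genes (3 and 0), 17 chemokines and cytokines (2 and 1) or 13 genes of the mitochondrial genome (0 and 0). Dusp1 (MKP1), the gene the study is about, was at 7.41 to 25.6 CPM in low, 14.3 to 21.9 in retained and 27.3 to 123 CPM in PF livers, with a log2 fold change of -0.14 (SE 0.358, adjusted p = 0.862 by edgeR).

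**Figure D5:**
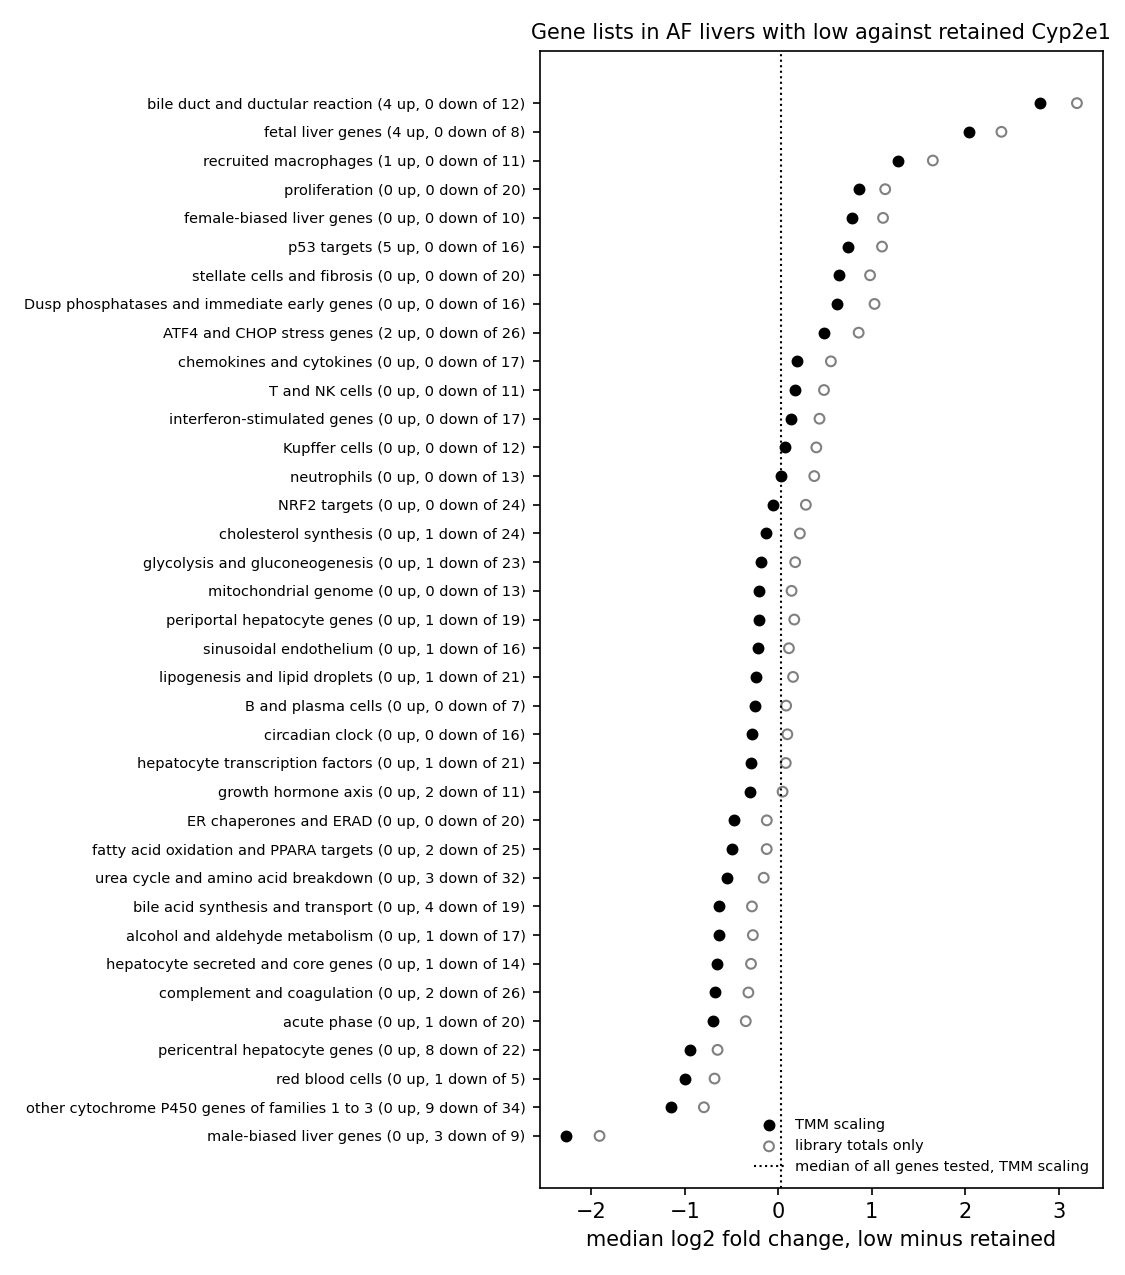
Median log2 fold change of low over retained livers (horizontal axis) for each list with at least 5 genes tested, on TMM scaling (filled) and library totals (open), with numbers of genes that passed in each label. Bile duct genes had the highest median (2.81, with Cftr and Cldn7 included) and male-biased genes the lowest (-2.27) on TMM scaling. The lists near 0 change sign with the scaling.

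Markers of other cell types were read from the same libraries. None of 20 stellate cell and fibrosis genes passed in edgeR's test, with 7 at an unadjusted p under 0.05 and 5 called by DESeq2. Over all genes 3034 of 14487 were at such an unadjusted p. All 20 had positive fold changes (median 0.65), and their sum was 1115 to 1638 CPM in low and 587, 791 and 1222 CPM in retained livers, highest in AF2. Without AF2, 4 were higher (median 1.22), and 7 in the fit of 12 livers without AF2. In 11 recruited macrophage genes Cd9 was higher (log2 fold change 1.28), at 47.0 to 104 CPM in low and 30.6 to 35.5 CPM in retained livers. All 11 had positive fold changes (median 1.28), 3 were higher by DESeq2 and 2 in the fit of 12 livers, and the sums overlapped. The single call is near the 1.42% higher over all genes. None of the 11 was called without AF1, AF4, AF6 or AF7, nor with the animal number range as a term, where the median was 0.63. None of 12 Kupffer cell, 13 neutrophil, 11 T and NK cell or 7 B cell genes passed edgeR's test (0 at an unadjusted p under 0.05, 0 by DESeq2), and their sums overlapped. Ehd3 alone was lower among 16 genes of sinusoidal endothelium, near the 1.54% lower over all genes. Of this list 0 were lower without AF1, AF3, AF5, AF6 or AF7, and 0 with the animal number range as a term. Red blood cell genes summed to 30.4 to 99.8 CPM in low, 130 to 180 in retained and 129 to 182 CPM in PF livers. Alas2, the heme synthesis enzyme of red cells, was lower (log2 fold change -2.24). In this list 5 genes were lower without AF3, 0 without AF5, AF6 or AF7 and 0 with the animal number range as a term. Pancreas genes summed to between 7.37 and 12.02 CPM in AF livers, and 4 of the 11 were at 0 in all AF livers. The duct and red cell sums did not overlap between the sets, nor did those of core hepatocyte genes and endothelium, at 383 to 540 CPM in low and 570 to 631 CPM in retained livers. Their part in the results above was not tested.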

How the data were processed

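Whole liver RNA of 5 PF and 7 AF mice was sequenced with 1 library per mouse. The authors enriched mRNA with oligo(dT), prepared stranded libraries, aligned the reads to GRCm38 with TopHat2 2.0.13 and counted them per gene with HTSeq 0.10.0, as the submitters' processing notes name them, with FastQC 0.10.1 for quality. The authors deposited raw counts for 54232 genes, of which 54165 were named by GENCODE M21. The annotation and strand setting are not given in the sources used here. The methods name Cuffdiff2 for the study's own test, which was not used here since it needs the reads.

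AF livers were split at a Cyp2e1 level of 3000 CPM of the library total. The members, the gene lists and the tests were chosen with earlier results of these data known, so no list is independent evidence. Counts were scaled with TMM factors estimated over all 12 livers, filtered with filterByExpr by the split (14487 genes, without Cyp2e1) and tested over the 7 AF livers with edgeR 4.0.16 (quasi-likelihood) in R 4.3.3, with p adjusted after Benjamini-Hochberg and called under 0.05. CPM values use these factors. Named genes were Cyp2e1, Dusp1, the 15 genes in each direction with the largest fold change that passed the test, had an average of 3 or more in log2 CPM and did not overlap between the sets, and up to 5 members of each list by p with its defining markers. The values of 1 list member, which is counted in its list, are not reported here. Members of a list named beyond these were named for a small count or after their values were seen. The steps were tested on simulated data. Alternatives were limma 3.58.1 (voom) with and without quality weights, DESeq2 1.42.0, RLE and upper-quartile factors, library totals, other filters, thinning, a fit of all livers in 3 groups, log2 Cyp2e1 as a covariate and each liver left out. TMM factors of the AF livers alone, the animal number range as a covariate, and the fit of 3 groups with each AF liver left out, were added after the data were seen. Each mouse is a separate animal per the labels, and no 2 libraries of the low set, or of the retained set, agreed within counting noise. Pairs across the sets and pairs of PF livers were not compared. Depth was 24129900 to 30578639 counts per library.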

Additional observations from a re-analysis of the deposited data

Results flagged for a closer look

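In the 4 low livers, the highest or lowest liver was tested for standing apart from the other 3 (Dixon's test at the 95% level). Of 50 values tested, 7 stood apart, where chance gives about 2.5. AF1 was highest for H19 (127 CPM, next 29.7), Tspan8 (46.8 CPM, next 14.1), Sox4 (41.3 CPM, next 16.03) and the number of genes with a count (20772). AF4 was highest for Mup7 (6.09 CPM), Mup11 (10.5 CPM) and Mup14 (17.6 CPM), which share much of their sequence. The 3 retained livers were too few for this test.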

How the results depend on the processing

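The 428 genes that differed kept their direction under every alternative in which they were tested, and 3 of them were not tested without AF1, AF3 or AF5. RLE factors gave 439 genes, upper-quartile factors 472, a mean of at least 10 counts 433, thinned libraries 435, voom with quality weights 408 and TMM factors of the AF livers alone 439, with 283 (voom with quality weights) to 428 of the 428 among them. The split on TMM-scaled Cyp2e1 was the same. Limma-voom gave 160 genes, 47 higher and 113 lower. The animal number range as a further term gave 73, 37 higher and 36 lower. A filter of at least 1 count in any liver gave 961, 528 higher and 433 lower. Log2 Cyp2e1 CPM in place of the split gave 1424, 749 higher and 675 lower, DESeq2 gave 1480, 734 higher and 746 lower, and the fit of 12 livers in 3 groups gave 1258, 566 higher and 692 lower. Library totals without TMM factors gave 1616, 1471 higher and 145 lower. With 1 AF liver left out, counts ranged from 10 (AF6) to 687 (AF2), with 2 to 358 higher and 8 to 329 lower. In the fit of 12 livers they ranged from 473 (AF6) to 1981 (AF2), with 180 to 977 higher and 293 to 1004 lower, and there were 1135 without AF3 (501 higher, 634 lower), 1149 without AF4 (548 and 601) and 1295 without AF5 (581 and 714). Fewer livers and residual degrees of freedom enter the fits of 6 livers, and the cause of the differences between livers was not tested. Unadjusted, 3034 genes had p under 0.05. No paired analysis was possible because low and retained livers are different AF mice that share no replicate number. Genes under a few CPM, such as Cldn6, Cftr and Krt19, rest on few counts per liver.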
